A study of Homo sapiens with 12 samples.

Results

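The HOX gene clusters were examined by ATAC-Seq in HEK293T cells that expressed fusion proteins of the translocation t(4;11). All gene entries whose symbol is HOX, the cluster letter A, B, C or D and a number were taken, so that antisense and pseudogene entries were left out. This gave 39 of the 52889 gene entries of the count table, with 11 genes in the HOXA cluster, 10 in HOXB, 9 in HOXC and 9 in HOXD. The rule itself uses no measured value, although it was set with earlier results of these data known. ATAC-Seq uses a transposase that cuts accessible DNA in nuclei and leaves sequencing adapters there, so that open chromatin yields more reads. HEK293T is a human embryonic kidney line.

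The series comprised 12 samples in 4 groups of 3 replicates, which the labels describe as stably transfected; by the methods of the study the AF4-MLL construct was brought in later by a transient transfection. Mock cells carried the empty inducible vector pSBTet-GP, and d0 cells (day 0) expressed MLL-AF4 constitutively. In d3 cells (day 3) AF4-MLL had in addition been induced for 48 h with doxycycline at 1 µg/ml. In d28 cells (day 28) AF4-MLL had been switched off for 25 days; the labels give them the genotype of d0 cells, and their earlier induction is known from the methods of the study. All groups except Mock thus carried MLL-AF4. The labels name the doxycycline treatment for all samples alike. By the study d0 material was taken before the induction in the RNA work, to which the ATAC-Seq setting was analogous. Whether Mock cells received doxycycline is unclear. The day of harvest of Mock cells and the number of independent transfections are not given in the sources used here, so the p-values measure the spread between these samples, which may be in part technical. Between replicates the chi-square per degree of freedom, which is 1 for counting noise alone, was 1.06 to 1.20 in Mock and 1.06 to 1.09 in d0. It was 1.28 to 1.38 in d3 and 1.08 to 1.36 in d28. At this depth the spread behind the p-values is thus close to that of read sampling.

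HOX genes encode homeodomain transcription factors that give the body axis its positional identity. Genes of equal number in the 4 clusters are paralogues, and low numbers are used at the anterior and high numbers at the posterior end of the axis. MLL, the product of KMT2A, is a histone H3 lysine 4 methyltransferase that keeps HOX genes active, and Polycomb complexes oppose it. In leukaemias with MLL fusions, HOXA9 and its cofactor MEIS1 are the best known targets, whereas HEK293T cells are of kidney origin and use many HOX genes without a fusion. The N-terminal part of MLL, which MLL-AF4 retains, binds unmethylated CpG dinucleotides through its CXXC domain.

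The sequences before the start of 3 HOX genes are shown for this reason, each with its CpG dinucleotides in capitals. HOXA9 was called at d28, HOXC4 lay above all Mock samples in each later group, and HOXA4 had the highest log2 fold change of a HOX gene at d0; HOXA4 and HOXC4 were not called. HOXB8 and HOXB13, the other called genes, had no entry in the promoter table used here, so the choice was in part set by that table. The stretches are the 250 bases before the RefSeq start, written 5′ to 3′ on the strand of the gene (build GRCh38.p14).
HOXA4, chr7:27130758-27131007, minus strand, 26 CpG: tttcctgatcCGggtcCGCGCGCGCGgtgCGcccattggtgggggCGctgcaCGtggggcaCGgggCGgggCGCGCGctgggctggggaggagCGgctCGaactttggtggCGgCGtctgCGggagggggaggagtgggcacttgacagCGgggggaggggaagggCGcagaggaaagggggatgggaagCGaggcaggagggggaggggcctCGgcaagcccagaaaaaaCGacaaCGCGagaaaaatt
HOXA9, chr7:27165538-27165787, minus strand, 20 CpG: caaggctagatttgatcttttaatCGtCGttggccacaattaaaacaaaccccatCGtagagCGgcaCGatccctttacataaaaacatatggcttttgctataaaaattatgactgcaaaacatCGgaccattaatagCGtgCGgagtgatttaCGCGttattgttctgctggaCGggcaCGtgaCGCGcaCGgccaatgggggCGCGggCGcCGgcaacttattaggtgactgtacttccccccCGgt
HOXC4, chr12:54016638-54016887, plus strand, 14 CpG: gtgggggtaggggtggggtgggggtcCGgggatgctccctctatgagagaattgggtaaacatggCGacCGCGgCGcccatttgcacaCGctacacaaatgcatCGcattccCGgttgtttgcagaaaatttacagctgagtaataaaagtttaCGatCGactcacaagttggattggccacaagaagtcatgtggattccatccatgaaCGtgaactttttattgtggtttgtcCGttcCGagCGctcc
Among 34943 such windows of RefSeq genes the median was 11 CpG, and 19.6% held at least the 26 of HOXA4, 32.4% at least the 20 of HOXA9 and 44.7% at least the 14 of HOXC4. A window at the RefSeq start was found for 18 of the 39 HOX genes, with a median of 19.5 CpG and a range from 4 (HOXD4) to 40 (HOXA13). The window of HOXC4 is also that of HOXC5. HOXC6 has the same RefSeq start, although it is not among the 18 genes, so this window is not particular to HOXC4. The counts are a description of the letters, and binding of MLL there was not measured.

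Counts are given as normalized read counts, that is, reads per gene scaled to a common effective library size by the TMM method. The summed counts of the samples ranged from 353430 (a Mock sample) to 3539937 (a d28 sample), and the mitochondrially encoded genes took 26.4 to 27.0% of them in Mock, 42.0 to 45.6% in d0, 32.8 to 44.1% in d3 and 63.6 to 68.5% in d28 cells. The 39 HOX genes together held 436 to 621 raw counts per Mock sample, 660 to 785 in d0, 1170 to 1372 in d3 and 628 to 1842 in d28 samples, spread over 37 to 39 genes with a read. Depth and mitochondrial share moved with the groups, and their part in the results was not tested beyond the other scalings given below. Of 9 genes that mark this kidney line, all had reads, from a mean normalized count of 13.6 (LHX1) to 90.5 (VIM), and their summed level was 266 to 278 in Mock, 282 to 316 in d0, 291 to 312 in d3 and 242 to 293 in d28 cells. It was thus above Mock in all d0 and d3 samples, as were the HOX sums given below, and the part of this in the results was not tested. None of the 9 was called in any of the 6 comparisons by edgeR, and at most 1 had an unadjusted p below 0.05 in each. The 8 blood markers summed to 71.7 to 96.7 in all samples, from a mean of 2.08 (CD3E) to 22.8 (SPI1), and 0 of them were called by edgeR (at most 3 at an unadjusted p below 0.05). KMT2A rose in d3 cells (log2 fold change 1.06, SE 0.21, adjusted p = 0.000212 by edgeR) and in d28 cells (1.40, SE 0.20, adjusted p = 9.63e-10) relative to Mock, but reads of the integrated cDNA constructs and of the native gene cannot be told apart.

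With all 4 clusters summed, HOX genes had more reads in each group with MLL-AF4 than in Mock cells. The sum was 785 ± 30.5 (SD, n = 3) in Mock, 923 ± 60.7 in d0, 1037 ± 31.3 in d3 and 979 ± 68.3 in d28 cells. These are 1.18, 1.32 and 1.25 times the Mock mean. Every sample of d0, d3 and d28 lay above every Mock sample, of which the highest had 805. The same separation from Mock was found without a scaling factor in the share of HOX reads among all reads outside the 37 mitochondrially encoded genes and their 389 nuclear copies, which was 0.164 to 0.175% in Mock, 0.187 to 0.213% in d0, 0.212 to 0.223% in d3 and 0.201 to 0.224% in d28 cells. If the nuclear copies are kept in the total, the d28 samples (0.165 to 0.188%) overlap with Mock (0.158 to 0.169%); these copies took 2.41 to 2.56% of the reads in Mock and 5.94 to 6.38% in d28 cells. When counts were scaled by total library size alone, mitochondrial reads included, the median log2 fold change of all genes was -0.45 (d0), -0.34 (d3) and -1.32 (d28), and the sums of each cluster at d0 and d28 were then below Mock. Relative to that median the HOXA sum remained 0.35, 0.38 and 0.31 higher on the log2 scale at d0, d3 and d28, and the HOXB sum 0.06, 0.41 and 0.33 higher.

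The clusters are described in turn. The HOXA sum was 229, 250 and 236 in the Mock samples (replicates 1, 2 and 3), 319, 346 and 251 in d0, 320, 293 and 330 in d3 and 272, 340 and 285 in d28. All later samples exceeded the Mock samples, although the third d0 sample did so by a single unit. The ratios to Mock were 1.28 at d0, 1.32 at d3 and 1.25 at d28.

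The HOXD sum went from 102, 106 and 122 in Mock to 142, 166 and 133 in d0. It was 152, 132 and 141 in d3 and 135, 156 and 115 in d28, where the third sample lay within the Mock range. As in HOXA, the ratio was already 1.34 at d0 and was 1.29 and 1.23 afterwards.

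The HOXB sum, in contrast, was 242, 227 and 236 in Mock and 281, 234 and 224 in d0, so that both groups overlapped (ratio 1.05). It was 312, 325 and 315 in d3 and 298, 302 and 297 in d28, all above every Mock and d0 sample. The ratio to Mock was 1.35 at d3 and 1.27 at d28, and the ratio of d3 to d0 was 1.29 for HOXB, 1.18 for HOXC, 1.03 for HOXA and 0.964 for HOXD. For HOXA and HOXD this ratio had no stable direction: its log2 value was 0.04 for HOXA but -0.0023 with RLE factors, and -0.05 for HOXD but 0.01 with TMM factors computed before the filter and 0.04 with scaling by total library size. Without the first d0 sample the log2 ratio of HOXB between d0 and Mock was -0.04 instead of 0.07.

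HOXC lay between these patterns. Its sum was 177, 218 and 210 in Mock, 235, 190 and 249 in d0, 272, 252 and 269 in d3 and 268, 252 and 217 in d28. Only the d3 samples were all above Mock (ratio 1.31), whereas d0 and d28 overlapped with it (1.11 and 1.22). No test was made of the sums, and whether the clusters differ in their course was not tested.

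Single HOX genes were read against Mock by the edgeR quasi-likelihood test over the 27579 genes whose mean exceeded 2 normalized counts in some group. Of the 39 HOX genes, 38 passed this limit. HOXD4 did not, with 0 reads in 10 samples and with 2 reads and 1 read in d3 samples. A gene was called at a Benjamini-Hochberg adjusted p below 0.05. The signature rule of the study takes an unadjusted p below 0.05 with a log2 fold change beyond 1 (in both cases with a mean above 2). It needs no adjustment but sets a limit on the fold change, so a called gene can fail it. The study also names a log2 limit of 2, which was not used here. The 3 comparisons with Mock share the same control samples and are not independent of each other.

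At d0, 0 of 38 HOX genes were called, against 0.609% of all genes tested, and 5 had an unadjusted p below 0.05 (9.65% of all genes); DESeq2 called 0 as well. Still, 30 of the 38 log2 fold changes were above 0, with a median of 0.26, where the median of all genes was 0.00. The signature rule was met by HOXA4 alone (4.39% of all genes met it). In 7 genes (HOXA2, HOXA4, HOXA10, HOXA11, HOXB4, HOXC4 and HOXD1) all d0 samples exceeded all Mock samples, beside 7.37% of all genes, and in 2 (HOXB13 and HOXC5) all were below, beside 7.07%.

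At d3 the shift was broadest. Of the 38 genes, 35 had a log2 fold change above 0, with a median of 0.44 against 0.03 for all genes, and 21 lay above the upper quartile of all genes, compared with 12 at d0 and 11 at d28. An unadjusted p below 0.05 was reached by 14 genes, all higher than in Mock, where 11.3% of all genes reached it. After adjustment 1 gene, HOXB8, was called (1.27% of all genes), and 0 met the signature rule (4.18%). All d3 samples exceeded all Mock samples in 13 genes (9.84% of all genes), of which 4 were HOXA, 4 HOXB, 3 HOXC and 2 HOXD genes. HOXB5 was the 1 gene with all d3 samples below Mock (6.70%).

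At d28 the median lay between those of d0 and d3, with 34 of 38 log2 fold changes above 0, a median of 0.32 against 0.03, and 7 genes with an unadjusted p below 0.05 (12.5% of all genes). HOXA9 was called (1.45% of all genes), and HOXD9 met the signature rule (4.80%). In 11 genes all d28 samples were above Mock (9.93% of all genes), and in HOXB5 again all were below (7.79%).

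Well covered genes were also looked at alone. Among the 31 HOX genes with a mean of at least 10 normalized counts, the median log2 fold change was 0.24 (d0), 0.45 (d3) and 0.29 (d28). Over the 14174 genes of that level it was 0.00, 0.06 and 0.01. All d3 samples were above Mock in 12 of these 31 HOX genes, compared with 12.7% of the genes of that level, while at d0 the figures were 4 and 8.64%. CpG content was compared as well, by the first promoter window listed for each gene. This window need not lie at the RefSeq start used for the sequences above. In 5624 genes of that level with 20 or more CpG in it, the median was -0.02 (d0), 0.04 (d3) and 0.00 (d28), and in the 8 HOX genes among them it was 0.28, 0.45 and 0.26. In the 2867 genes with fewer CpG, down to 10, the median was 0.02, 0.09 and 0.04, and in the 5 HOX genes among them, HOXC4 included, it was 0.26, 0.24 and 0.18.

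**Figure D1:**
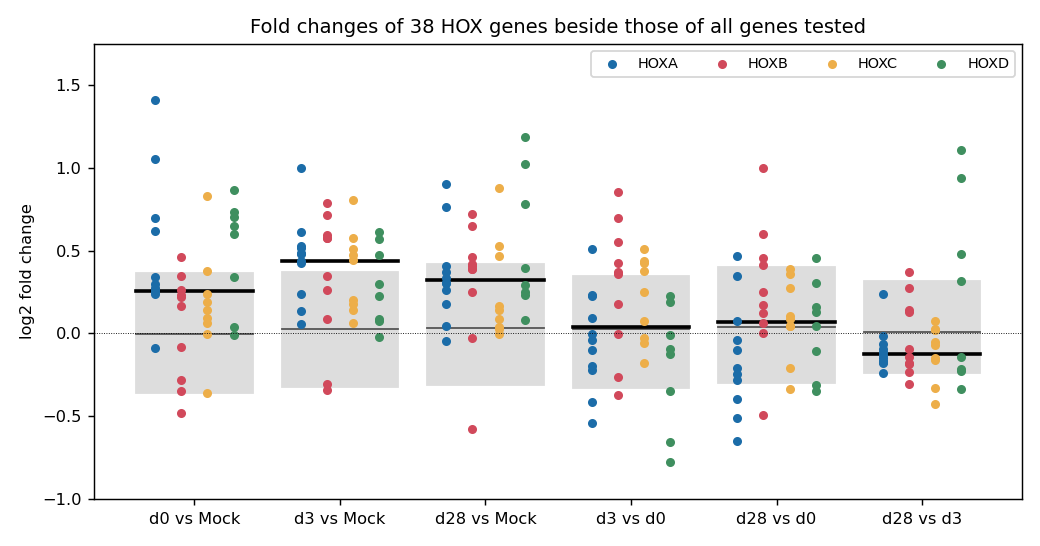
Log2 fold changes of the 38 tested HOX genes in the 6 comparisons, coloured by cluster. Grey boxes span the quartiles of all 27579 genes tested with their median as a thin line, and thick black lines are the HOX medians. The HOX median is above that of all genes in the 3 comparisons with Mock, near it for d3 and d28 against d0, and below it for d28 against d3.

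By position in the clusters, values above 0 were found at both ends. At d3 the median log2 fold change was 0.37 in the 8 anterior genes (paralogue groups 1 to 3), 0.47 in the 14 central genes (groups 4 to 8) and 0.39 in the 16 posterior genes (groups 9 to 13). All 16 posterior genes had values above 0 at d3 and at d28, compared with 12 of 16 at d0. Of all genes tested, 52.1% (d3), 52.4% (d28) and 49.8% (d0) had values above 0. Some of the posterior values at d28 were near 0, such as HOXC13 (0.03) and HOXC12 (0.04). HOXB5 and HOXB7, which neighbour HOXB6, were the only HOX genes with values below 0 in all 3 comparisons with Mock. HOXB5 had means of 23.0 ± 1.28, 21.5 ± 8.56, 18.3 ± 3.95 and 15.3 ± 3.23 in Mock, d0, d3 and d28 cells (SD, n = 3), and was not called (adjusted p = 0.414 at d28 by edgeR).

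**Figure D2:**
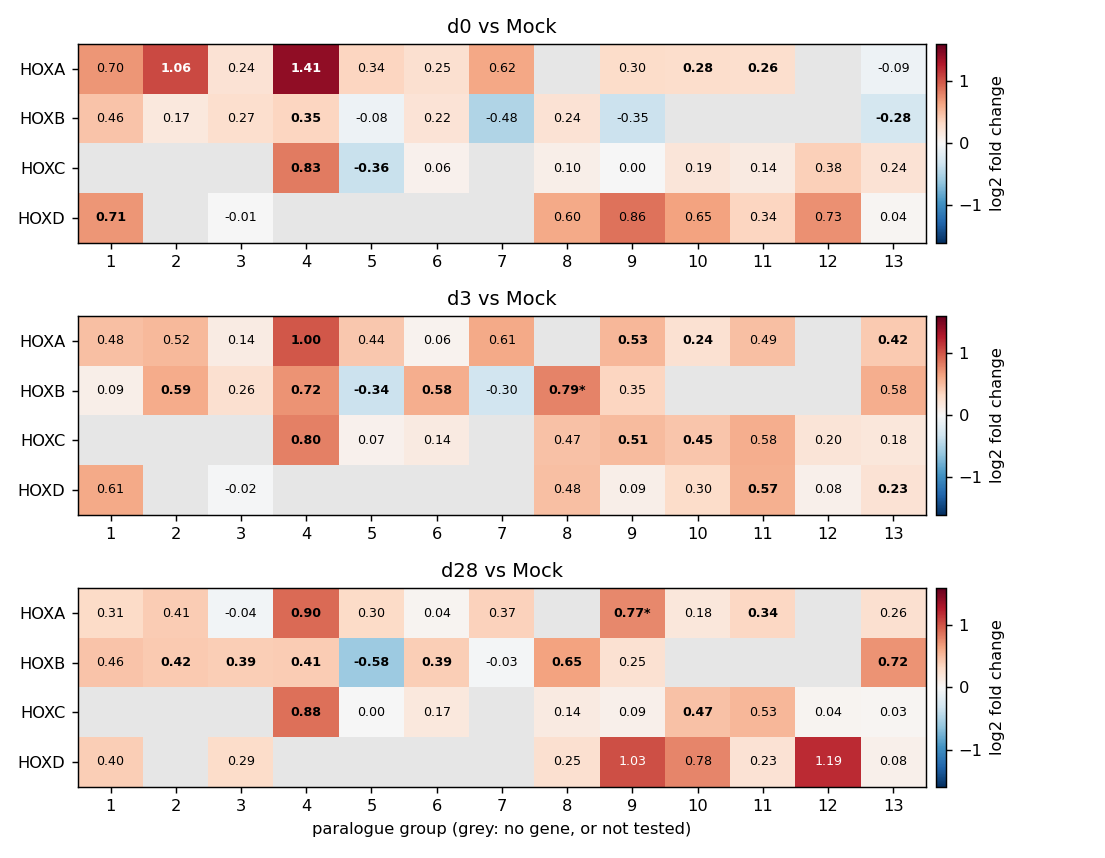
Log2 fold changes of each HOX gene relative to Mock, by cluster (rows) and paralogue group (columns), at d0, d3 and d28. Bold values mark genes whose samples do not overlap between the groups and an asterisk marks an adjusted p below 0.05; HOXA4, HOXB4 and HOXC4 are bold in all 3 panels.

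The 3 tested genes of paralogue group 4 were the only HOX genes in which every sample of d0, d3 and d28 exceeded every Mock sample, which was noticed after the values were seen; 479 of all genes tested (1.74%) had this pattern. HOXC4, a central HOX gene expressed in lymphoid cells among others, was measured at 16.5, 21.9 and 18.5 in the Mock samples. It was at 36.1, 26.9 and 38.8 in d0, 38.5, 26.5 and 34.9 in d3 and 34.3, 36.6 and 34.9 in d28. The level of d0 was thus also that of d3 and d28. Its log2 fold changes were 0.83 (SE 0.29), 0.80 (SE 0.27) and 0.88 (SE 0.26), with adjusted p = 0.221, 0.118 and 0.0531 by edgeR, all short of the threshold.

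HOXA4 had few reads. Its normalized counts were 5.99, 5.16 and 3.69 in Mock and 7.46, 19.9 and 14.2 in d0 cells. In d3 they were 13.1, 6.85 and 10.3, and in d28 8.97, 9.14 and 11.6. The groups did not overlap with Mock, yet the d0 samples were spread widely, and the Mock values stood for only 4, 4 and 2 reads. The log2 fold change at d0 was 1.41 (SE 0.50), with an unadjusted p of 0.00511 and an adjusted p = 0.258 by edgeR.

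HOXB4, known for its use in expanding blood stem cells, had 26.9, 25.8 and 29.5 in Mock, 38.6, 32.6 and 32.4 in d0, 47.7, 47.9 and 38.8 in d3 and 32.7, 43.6 and 30.6 in d28. It was highest at d3, where the log2 fold change was 0.72 (SE 0.23, adjusted p = 0.0946 by edgeR). The spans of all 3 genes overlap with other genes in RefSeq, HOXA4 with HOXA3 and HOXA-AS2, HOXB4 with HOXB3, and HOXC4 with HOXC5, HOXC6 and MIR615. How reads in shared stretches were assigned, and whether strand was used, is not given in the sources used here.

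Of the HOXA genes named most often as targets of MLL fusions, HOXA9 was the 1 gene called. It cooperates with MEIS1 in transforming blood progenitors. Its normalized counts were 26.9, 28.4 and 36.9 in Mock, 47.3, 39.7 and 24.6 in d0, 43.1, 47.1 and 41.2 in d3 and 55.4, 53.4 and 39.3 in d28 cells. The d3 and d28 samples were all above Mock, whereas 1 of the d0 samples was below every Mock sample. The log2 fold change was 0.30 at d0 (SE 0.25, adjusted p = 0.765 by edgeR; 0.07 without d0 replicate 1 and up to 0.53 without another sample), 0.53 at d3 (SE 0.22, adjusted p = 0.300) and 0.77 at d28 (SE 0.21, adjusted p = 0.0316). The call at d28 was lost with DESeq2 (adjusted p = 0.140) and without any 1 of the samples Mock replicate 1, Mock replicate 2, d28 replicate 1 or d28 replicate 2 (adjusted p up to 0.188). The span of HOXA9 (chr7:27162438-27165537, GRCh38.p14) lies within that of the readthrough gene HOXA10-HOXA9, so its reads may be shared.

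HOXA7, HOXA5 and HOXA10 were not called. HOXA7 had means of 22.1 ± 7.28 in Mock, 33.4 ± 5.68 in d0, 33.0 ± 7.16 in d3 and 27.1 ± 7.06 in d28 (SD, n = 3), and the Mock samples overlapped with each of the other groups. Its log2 fold change at d3 was 0.61 (SE 0.26, adjusted p = 0.302 by edgeR). HOXA10, the HOX gene with the most reads, had 49.8 ± 0.442 in Mock, 60.3 ± 4.04 in d0, 58.8 ± 7.14 in d3 and 57.7 ± 14.2 in d28, and the 95% interval of its log2 fold change at d28 was from -0.19 to 0.54. For HOXA5 the log2 fold changes were 0.34 (d0), 0.44 (d3) and 0.30 (d28), the smallest adjusted p being 0.634 by edgeR, and the d28 value ranged from 0.15 (without d28 replicate 2) to 0.66 when 1 sample was left out.

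HOXB8, a central HOX gene whose forced expression blocks myeloid differentiation, was the HOX gene called at d3. It was measured at 29.9, 30.9 and 33.2 in Mock and at 42.3, 26.9 and 40.1 in d0. In d3 cells it was at 60.1, 51.4 and 50.7, and in d28 cells at 49.1, 47.1 and 52.4. All d3 and d28 samples were above all Mock and d0 samples, which overlapped with each other. The log2 fold change relative to Mock was 0.79 at d3 (SE 0.21, adjusted p = 0.0224 by edgeR) and 0.65 at d28 (SE 0.22, adjusted p = 0.103). No other RefSeq gene overlaps with HOXB8 (chr17:48612346-48615292, GRCh38.p14). The call was lost with DESeq2 (adjusted p = 0.167) and without any 1 of the Mock samples or d3 replicate 1 (adjusted p 0.0608 to 0.128).

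HOXD9 met the signature rule at d28, but its replicates disagreed. Its normalized counts were 15.0, 7.74 and 5.54 in Mock, 17.4, 11.3 and 23.3 in d0, 14.6, 7.70 and 7.92 in d3 and 23.7, 21.1 and 7.28 in d28. The third d28 sample, the shallowest of its group, lay within the Mock range. The log2 fold change was 1.03 (SE 0.36) with an adjusted p = 0.136 by edgeR, and it was 0.77 without d28 replicate 1 and 1.51 without Mock replicate 1.

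**Figure D3:**
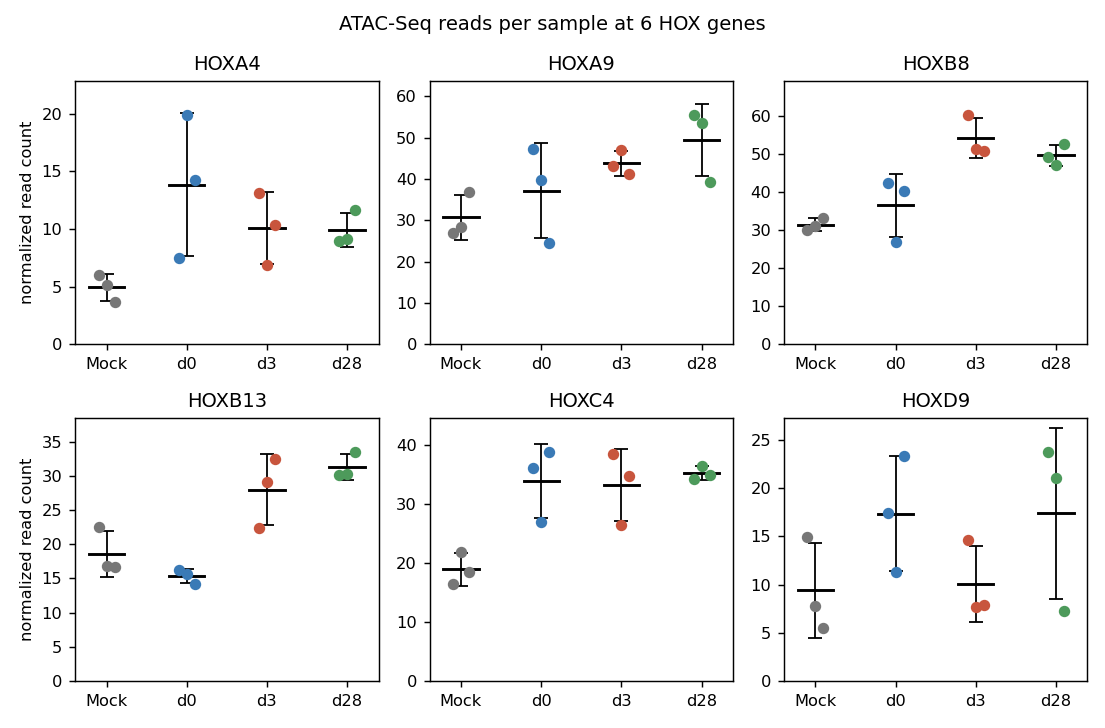
Normalized read counts of HOXA4, HOXA9, HOXB8, HOXB13, HOXC4 and HOXD9 in the 12 samples. Points are samples, horizontal lines means and bars the SD of 3 replicates. HOXC4 is above Mock from d0 on, and HOXD9 spreads widely within the groups. HOXB8 and HOXB13 have their highest means at d3 and d28, but d3 replicate 1 of HOXB13 (22.3) is below Mock replicate 1 (22.5).

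The comparison of d3 with d0 addresses AF4-MLL added to MLL-AF4. By the methods of the study d3 cells had also gone through a further transfection, Blasticidin and doxycycline, which cannot be told apart from AF4-MLL here. The sum over all HOX genes was 977, 936 and 857 in d0 and 1056, 1001 and 1055 in d3, so that every d3 sample was above every d0 sample (ratio 1.12). The genes were divided, with 19 of 38 log2 fold changes above and 19 below 0 and a median of 0.04 against 0.02 for all genes. In the 31 well covered HOX genes the median was 0.19, against 0.05 over the genes of that level. None was called (0.910% of all genes were), and DESeq2 called 0 as well. The signature rule was met by 0 (3.68% of all genes), and 6 genes had an unadjusted p below 0.05 (11.4%), 5 of them higher and HOXD9 lower at d3. All d3 samples were above all d0 samples in 7 genes (10.0% of all genes), namely HOXA13, HOXB4, HOXB6, HOXB8, HOXB9, HOXB13 and HOXC5, 5 of which are HOXB genes. In 0 HOX genes were all d3 samples below d0 (7.12%).

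HOXB13 and HOXB9 at the posterior end of HOXB had the largest of these differences. HOXB13, which acts in tail and prostate development, was at 22.5, 16.8 and 16.6 in Mock and at 16.2, 15.6 and 14.2 in d0. It was at 22.3, 29.1 and 32.5 in d3 and at 30.1, 30.2 and 33.5 in d28. The d0 samples were the lowest of all, and the d3 and d28 samples were above them without overlap. Its log2 fold change was 0.86 between d3 and d0 (SE 0.28, adjusted p = 0.118 by edgeR) and 1.00 between d28 and d0 (SE 0.27, adjusted p = 0.0287). Relative to Mock it was -0.28 (SE 0.35) at d0 and 0.72 (SE 0.27, adjusted p = 0.186) at d28. The call between d28 and d0 was lost with DESeq2 (adjusted p = 0.099) and without any 1 of the 6 samples compared (adjusted p 0.0598 to 0.144). HOXB9 was at 31.2 ± 7.41 in Mock, 24.1 ± 0.483 in d0, 38.9 ± 6.30 in d3 and 35.5 ± 4.27 in d28 (SD, n = 3), with a log2 fold change of 0.70 between d3 and d0 (SE 0.23, adjusted p = 0.131 by edgeR).

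**Figure D4:**
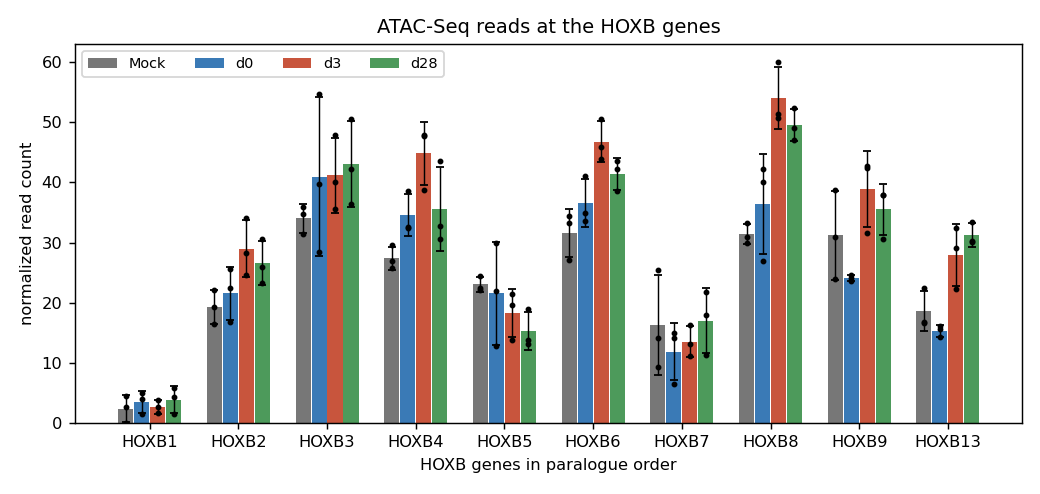
Normalized read counts of the 10 HOXB genes in the 4 groups. Bars are means, error bars the SD of 3 replicates and dots the samples. HOXB4, HOXB6, HOXB8, HOXB9 and HOXB13 are higher in all d3 samples than in all d0 samples, while the mean of HOXB5 is 23.0 in Mock and 15.3 in d28.

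Whether the state before induction returned after AF4-MLL had been switched off is addressed by d28 against d0 and against d3. By the methods of the study d28 cells had also gone through the further transfection, Blasticidin and doxycycline, and a longer culture. Their mitochondrial share was 63.6 to 68.5%, against 42.0 to 45.6% in d0 and 32.8 to 44.1% in d3 cells. The part of these in the differences below was not tested and cannot be told apart from that of AF4-MLL here. Between d28 and d0, 24 of 38 log2 fold changes were above 0 (median 0.07, all genes 0.04), HOXB13 was called (1.35% of all genes), 0 genes met the signature rule (4.53%) and 4 had an unadjusted p below 0.05 (12.6%). HOXB8, HOXB9 and HOXB13 were above all d0 samples (10.2% of all genes), and 0 were below (7.97%). Between d28 and d3, 26 of 38 were below 0 (median -0.12, all genes 0.01), but 0 were called by edgeR or DESeq2 (0.370% of all genes by edgeR). HOXD9 alone had an unadjusted p below 0.05 (8.83% of all genes), and 0 met the signature rule (3.05%). HOXB6, HOXC8 and HOXC9 were below all d3 samples (7.51% of all genes), and 0 HOX genes were above them (6.79%). HOXB8 differed between d28 and d3 by -0.14, with a 95% interval from -0.46 to 0.17, and HOXB13 by 0.14, with an interval from -0.27 to 0.55.

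Levels can be compared between genes only per length, here as normalized counts per kb of the RefSeq span, averaged over the 12 samples. The most reads per kb were found at HOXB8 (14.5), HOXD8 (14.2), HOXA9 (13.0) and HOXB4 (12.5). The order depended on the group: HOXD8 was above HOXB8 in Mock (11.3 and 10.6) and d0 (17.2 and 12.4), and HOXB8 above HOXD8 in d3 (18.3 and 15.4) and d28 (16.8 and 12.7). In HOXC the highest were HOXC11 (9.23) and HOXC10 (7.29). The second highest genes of the other clusters were HOXA11 (9.86) and HOXD9 (6.11). The lowest pair of each cluster was HOXA3 (0.559) and HOXA2 (2.19), HOXB3 (0.963) and HOXB1 (1.23), HOXC4 (0.776) and HOXC5 (1.48), and HOXD4 (0.124) and HOXD3 (0.535). HOXD12 (0.558) and HOXD10 (1.40) were also below HOXC5. The spans of HOXA3, HOXB3, HOXC4, HOXC5 and HOXD3 include long introns, from 18.5 to 45.6 kb in all, and if reads were counted over exons, which the sources used here do not state, the values per kb of these genes are too low. HOXD4, HOXD12 and HOXB1 are short and had 0.209, 1.50 and 3.07 normalized counts on average, the fewest of all HOX genes. HOXD12 and HOXB1 were close to the limit of detection, at which no difference between the groups could be shown; the 95% interval of HOXD12 at d28 ran from -0.93 to 3.31.

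Further lists of genes are read beside the same shares of all genes. The shares called by edgeR were 0.609% (d0), 1.27% (d3) and 1.45% (d28) relative to Mock. They were 0.910% for d3 against d0, 1.35% for d28 against d0 and 0.370% for d28 against d3. An unadjusted p below 0.05 was reached by 8.83 to 12.6% of all genes. Calls in these lists were not checked with DESeq2 or by leaving out samples. The clusters also hold non-coding and antisense genes. Of 24 such genes listed, 22 were in the table and 19 were tested. At d3, 2 were called relative to Mock, HOXB-AS1 (log2 fold change 1.31, SE 0.38, adjusted p = 0.0425 by edgeR) and HOXA-AS3 (0.48, SE 0.14, adjusted p = 0.0464), which overlaps with HOXA5, HOXA6 and HOXA7. At d28, 2 were called, HOTAIR (1.18, SE 0.31, adjusted p = 0.0139 by edgeR), a long RNA from the HOXC cluster, and HOXC-AS1 (1.50, SE 0.42, adjusted p = 0.0320). At d0, and in d3 and d28 relative to d0, 0 were called by edgeR, with 3, 4 and 2 at an unadjusted p below 0.05. Relative to Mock, 7 were higher and 1 lower at this limit at d3, and 5 higher and 1 lower at d28. For d28 against d3, 4 were lower and 0 higher. HOTTIP, transcribed from the posterior end of HOXA, was called lower in d28 than in d3 (-1.22, SE 0.25, adjusted p = 0.000379 by edgeR), with 28.5, 39.4 and 26.2 in d3 and 10.0, 16.9 and 14.6 in d28 cells. Of 13 tested neighbours outside the clusters, 0 were called in any comparison with edgeR (at most 6 at an unadjusted p below 0.05). Their median log2 fold changes relative to Mock were -0.24, 0.09 and 0.04 at d0, d3 and d28. Relative to d0 they were 0.36 at d3 and 0.24 at d28, where the HOX medians were 0.04 and 0.07. For d28 against d3 the neighbour median was -0.11 and the HOX median -0.12. The 6 were found for d3 against d0, 5 higher and 1 lower, beside 11.4% of all genes.

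The TALE proteins, homeodomain partners of HOX proteins on DNA, were measured as a further list. Of 9 genes, all tested, MEIS1 was called at d0, and MEIS1 and MEIS2 were called at d3 and d28, all of them higher than in Mock. MEIS1 had 55.4, 43.8 and 53.5 in Mock, 85.8, 72.3 and 89.4 in d0, 75.5, 94.1 and 87.2 in d3 and 76.5, 78.0 and 78.6 in d28 cells. No sample of d0, d3 or d28 was as low as the Mock samples, and the log2 fold changes were 0.71 (SE 0.19, adjusted p = 0.0314 by edgeR), 0.76 (SE 0.17, adjusted p = 0.00289) and 0.62 (SE 0.18, adjusted p = 0.0375). MEIS2 had log2 fold changes of 1.05 at d3 (SE 0.20, adjusted p = 0.000119 by edgeR) and 0.98 at d28 (SE 0.20, adjusted p = 0.000391).

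Of 16 activators of HOX chromatin, KMT2A was called at d3 and d28 as given above and was also called higher in d28 than in d0 cells (log2 fold change 0.96, SE 0.18, adjusted p = 2.94e-05 by edgeR; means 75.2 ± 12.6 and 39.9 ± 7.69, SD, n = 3), with the same limit on its reads. KDM6B, a demethylase of histone H3 lysine 27, was called lower in d3 cells than in Mock (log2 fold change -0.94, SE 0.22, adjusted p = 0.00467 by edgeR) and than in d0 (-0.81, SE 0.22, adjusted p = 0.0341). AFF1, the gene of AF4, was not called (52.5 ± 10.5 in Mock and 69.2 ± 9.03 in d0; SD, n = 3). By the study the MLL-AF4 construct contains a part of AF4, so reads of construct and native AFF1 cannot be told apart either. Of 16 Polycomb genes CBX8, a subunit that binds methylated histone H3, was called higher in d3 than in d0 (0.83, SE 0.20, adjusted p = 0.00940 by edgeR). Relative to Mock 0 were called, with 0, 3 and 0 at an unadjusted p below 0.05 at d0, d3 and d28. For d3 against d0, 5 were higher and 0 lower at this limit, beside 11.4% of all genes. For d28 it was 3 higher against d0 (12.6%) and 3 lower against d3 (8.83%).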

How the data were processed

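ATAC-Seq libraries of 12 samples were made by the authors with Nextera transposase from nuclei; the labels also mention RNA purification. The authors deposited 1 table of whole-number read counts per gene, not normalized. The processing notes of the submitters name GRCh38, bcl2fastq, Bowtie2 and HTSeq without versions. The interval counted, the read shift and the removal of duplicates are not given in the sources used here. Groups and replicates were taken from the labels.

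The edgeR package (4.0.16; R 4.3.3) was used for a quasi-likelihood F test over all 12 samples without covariates. Genes were kept where the mean of some group exceeded 2 normalized counts (27579), and library sizes and TMM factors were then computed on them. Log2 fold changes are given with SE; 95% intervals use the normal quantile. P-values were adjusted by Benjamini-Hochberg over all tested genes. The signature rule follows the study. Cluster sums were not tested. Genes were named if called or past the signature rule in any comparison, if among the 2 highest or 2 lowest per kb of a cluster, or as HOXA5, HOXA7, HOXA9 and HOXA10; of other lists at most 3 called genes were named. The restriction to a mean of at least 10, the CpG strata and the genes named for samples that do not overlap were chosen after their values were seen. Members and lists were chosen with earlier results of these data known. Spans and promoter windows are from RefSeq (GRCh38.p14), in which all 39 symbols were found. The procedure was tested on simulated counts. Alternatives were DESeq2 1.42.0, other scalings (RLE, library sizes), other filters, the 2 groups alone, a replicate block and leaving out each sample. Total counts were 353430 to 3539937 per sample, which limits the precision at single genes. Plots were made in Python 3.11.15 (matplotlib 3.10.9).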

Additional observations from a re-analysis of the deposited data

How the results depend on the processing

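Counts of HOX genes are given here past the adjusted p of 0.05 and past the signature rule, and cluster sums as log2 ratios. DESeq2 gave 0 genes past the adjusted p at d3 and d28 relative to Mock and for d28 against d0, 0 past the signature rule at d28 and 1 for d28 against d0. With the 2 groups alone, without a filter and with TMM factors computed before the filter, the signature rule gave 1 gene at d3 and 1 for d28 against d0; the last of these 3 also gave 2 genes past the adjusted p at d3 and 2 at d28. The newer dispersion scheme of edgeR gave 1 gene past the signature rule for d28 against d0, and in it the result HOXA9, d28 vs Mock, had an adjusted p = 0.0648 by edgeR. The filter of filterByExpr gave 2 genes past the adjusted p at d28, the second being HOXC4, d28 vs Mock (adjusted p = 0.0380). TMM factors before the filter, the dispersion scheme and the scaling without nuclear copies were chosen after seeing the data. RLE factors and that scaling changed no call and moved no count by over 1.5 times.

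Scaling by total library size alone gave 0 genes past the adjusted p at d3, 29 at d28, 26 for d28 against d0 and 32 for d28 against d3, and past the signature rule 0 at d0, 22 at d28, 11 for d28 against d0 and 27 for d28 against d3. Of all 27579 genes tested, 835 passed the adjusted p at d3 and 17811 at d28 with this scaling. For d28 against d0 it was 12616 of all genes, and for d28 against d3 16301. All genes past the signature rule were not counted with this scaling. The log2 fold changes that turned below 0 were, at d0, -0.11 for HOXA5, -0.16 for HOXA9 and -0.18 for HOXA10, at d3 -0.13 for HOXA10, and at d28 -0.63 for HOXA9, -0.37 for HOXD9, -1.03 for HOXA5, -1.004 for HOXA7, -1.16 for HOXA10 and -0.49 for HOXC4. Cluster sums were -0.10, 0.040 and -1.01 for HOXA at d0, d3 and d28, -0.39, 0.070 and -0.998 for HOXB (0.46 for d3 against d0), -0.29, 0.030 and -1.07 for HOXC and -0.036, 0.0061 and -1.04 for HOXD. By construction this scaling moves all genes together, as the median of all genes shows. Library sizes outside mitochondrially encoded genes gave 0 genes past the adjusted p at d3, at d28 and for d28 against d0, 0 past the signature rule at d28, a log2 fold change of -0.082 for the result HOXA10, d28 vs Mock, and d28 sums of 0.080 (HOXA), 0.098 (HOXB), 0.031 (HOXC) and 0.050 (HOXD).

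Leaving out 1 sample gave 0 to 1 genes past the adjusted p at d3, 0 to 2 at d28 and 0 to 1 for d28 against d0; past the signature rule it gave 1 to 2 at d0 and 0 to 1 in each of the other 5 comparisons. Cluster sums ranged from 0.27 to 0.48, 0.36 to 0.45 and 0.24 to 0.41 for HOXA at d0, d3 and d28, from -0.039 to 0.13, 0.41 to 0.45 and 0.34 to 0.37 for HOXB, from 0.07 to 0.27, 0.30 to 0.47 and 0.20 to 0.37 for HOXC and from 0.34 to 0.50, 0.32 to 0.46 and 0.20 to 0.41 for HOXD. For d3 against d0 they were -0.08 to 0.14 (HOXA), 0.30 to 0.47 (HOXB), 0.12 to 0.31 (HOXC) and -0.12 to 0.04 (HOXD). The log2 fold change of HOXA10 at d28 ranged from -0.050 (without d28 replicate 2) to 0.44. Unless a cause is given by the construction of an alternative, the cause was not tested.

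Replicate numbers are shared between groups, and no sign of a pairing was seen: the correlation of deviations of same-numbered samples was -0.153 to 0.0824 over 8295 genes. Because the replicates differed by little more than counting noise, these correlations cannot exclude a pairing. With a replicate block, 0 genes passed the adjusted p at d28 (HOXA9, d28 vs Mock, log2 fold change 0.74, adjusted p = 0.0528 by edgeR), 0 passed the signature rule at d28 and 1 for d28 against d0.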

Other observations

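Of 9 genes of retinoid control, among them CDX2, 0 were called in any of the 6 comparisons by edgeR, with at most 2 at an unadjusted p below 0.05, and their median log2 fold change relative to Mock was -0.03 (d0), 0.07 (d3) and -0.04 (d28). The summed level of the 9 TALE genes was 223 to 244 in Mock, 294 to 306 in d0, 301 to 318 in d3 and 310 to 346 in d28 samples. The 19 tested non-coding genes of the clusters summed to 367 to 425 in Mock and 449 to 458 in d0 samples. They summed to 497 to 582 in d3 and 464 to 508 in d28 samples. Every later sample thus exceeded every Mock sample in both lists. Genes with many reads weigh most in such sums, here MEIS1 (mean 74.2) and HOXA-AS3 (123.8). In the TALE list the median log2 fold changes relative to Mock were 0.44, 0.09 and 0.22 at d0, d3 and d28. In the non-coding list they were 0.21, 0.40 and 0.07, where all genes had -0.002, 0.03 and 0.03.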
